A study of Mus musculus with 11 samples.

Results

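The histone genes followed here are the 77 of 24421 counted mouse genes whose symbol names a core histone (H2A, H2B, H3 or H4) or a linker histone (H1). A gene belongs to them when its symbol begins with H1f, H2ac, H2bc, H3c or H4c, or with Hist1h to Hist4h in the older nomenclature, or is H2aj, H2ax, H2az1, H2az2, H3f3a or H3f3b, and 6 genes were matched by the older name alone. They fell into 67 clustered genes, of which 54 lie on chromosome 13, 9 on chromosome 3, 3 on chromosome 11 and 1 on chromosome 6, 8 variant genes (H1f0, H1f10, H2aj, H2ax, H2az1, H2az2, H3f3a and H3f3b), and 2 orphan linker genes, H1f7 and H1f8. RNA sequencing was done on Ly49H+ natural killer (NK) cells, lymphocytes that carry an activating receptor for a protein of mouse cytomegalovirus. The cells were sorted from spleens of C57BL/6 mixed bone marrow chimeras as NK1.1+ DX5+ Ly49H+ cells without TCRb or CD3e. There were 4 groups: LDHA-deficient (KO, CD45.2) cells with titles reading D2 (KO D2, n = 3), wild-type (WT, CD45.1) cells titled D2 (WT D2, n = 3), KO cells titled D0 (KO D0, n = 3) and WT cells titled D0 (WT D0, n = 2, replicates 2 and 3). Ldha encodes the A subunit of lactate dehydrogenase, the enzyme that makes lactate from pyruvate. KO and WT cells thus differ in the CD45 allele as well as in Ldha, and both came from chimeras. The labels call each library an individual mouse. They name mouse cytomegalovirus infection as the treatment and Day 2 as the time for all 11 libraries, so whether the D0 cells came from uninfected mice is not settled, and the groups are named by their titles. For libraries titled WT, the genotype field allows either genotype, and there too the title decided the group.

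Histones are the proteins around which DNA is wound into nucleosomes, with H2A, H2B, H3 and H4 in the core and H1 on the linker DNA. The clustered genes are short, mostly lack introns, and are transcribed mainly in S phase, when new DNA has to be packaged. Their messenger RNAs normally end in a conserved stem-loop, which is bound by the stem-loop binding protein SLBP, and carry no poly(A) tail. The variant genes mostly lie apart from the clusters, although H2aj lies near H4f16 on chromosome 6, a gene counted here as clustered. The variant genes are mostly transcribed throughout the cell cycle, and make polyadenylated messenger RNAs. H2ax is known to make both kinds of messenger RNA. The cDNA of these libraries was primed with oligo-dT, which starts from poly(A), so a level of a clustered gene here is that of the RNA that such priming captured and not of all its RNA.

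The stem-loops are shown because this 3′ end sets the clustered genes apart. A run of 16 bases that begins GG, has TT after its first 6 bases and ends in 6 bases that are the reverse complement of its first 6 was searched on the sense strand of the GENCODE transcripts of mouse build GRCm38. It was found in 42 of 65 clustered genes with a transcript, in 1 of 8 variant genes, H2ax, and in 0.5% of the other genes (106 genes). Some clustered genes without a match have a GENCODE transcript shorter than their RefSeq gene. Examples are H4c12 (312 against 409 bases) and H2bc13 (381 against 473 bases). Their 3′ ends may be missing from the search, so no match does not mean that a gene lacks the stem-loop. One sequence was carried by 24 clustered genes, of which 9 were H2A, 8 H2B, 4 H3 and 3 H1 genes. Another was carried by 7 genes, all of them H4, and a further form by 6 genes. The 16 bases are in capitals, with their flanks in lower case:
H2ac24: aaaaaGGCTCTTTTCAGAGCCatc
H2bc11: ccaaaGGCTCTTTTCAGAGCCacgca
H1f2: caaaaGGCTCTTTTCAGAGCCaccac
H3c6: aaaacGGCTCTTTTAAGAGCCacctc
H4c4: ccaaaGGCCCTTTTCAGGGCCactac
H4c2: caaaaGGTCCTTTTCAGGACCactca
H2ax: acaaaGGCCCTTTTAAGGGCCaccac

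H2ac24, H2bc11 and H1f2 had the common form. H4c4 and H4c2 differed from it within the stem, H3c6 in the loop, and H2ax in both. The annotated transcript of H2ac24 stopped 3 bases after the stem-loop and that of H2bc11 after 23 bases, whereas those of H1f2, H4c4 and H2ax ran on for 840, 770 and 822 bases.

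The coding sequences are shown because their base composition went with the differences described below. The most GC-rich 100 bases (peak GC) of a pair of clustered genes that were lower in KO D2 cells, of a variant gene that was lower, and of 2 clustered genes that were not called were as follows, all from GRCm38:
H2ac24 (chr13:21833329-21833428, minus strand, 79% GC, coding exon): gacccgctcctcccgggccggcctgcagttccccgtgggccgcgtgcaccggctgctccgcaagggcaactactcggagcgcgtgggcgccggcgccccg
H3c11 (chr13:21783237-21783336, minus strand, 77% GC, coding exon): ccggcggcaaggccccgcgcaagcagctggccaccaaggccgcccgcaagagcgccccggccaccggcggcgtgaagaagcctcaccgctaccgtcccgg
H2aj (chr6:136808387-136808486, plus strand, 78% GC, coding exon): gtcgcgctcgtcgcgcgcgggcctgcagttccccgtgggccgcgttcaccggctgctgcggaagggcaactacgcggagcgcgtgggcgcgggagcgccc
H2bc11 (chr13:22043487-22043586, plus strand, 73% GC, coding exon): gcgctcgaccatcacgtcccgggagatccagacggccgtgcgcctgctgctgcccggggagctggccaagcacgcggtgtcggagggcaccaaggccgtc
H4c4 (chr13:23581652-23581751, plus strand, 70% GC, coding exon): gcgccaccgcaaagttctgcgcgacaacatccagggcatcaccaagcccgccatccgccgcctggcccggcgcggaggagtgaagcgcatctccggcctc

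Many H2A and H2B genes are transcribed away from each other from 1 shared stretch of DNA. The stretch between H2ac11, on the minus strand, and H2bc11, on the plus strand, is shown because both genes read from it and only the H2A partner was called lower in KO D2 cells. Their starts lie 249 bases apart, and the RefSeq promoter window of H2bc11 (GRCm38.p6, 250 bases before to 50 after the start, plus strand, chr13:22042948-22043247) covers both. Capitals mark CCAAT on either strand:
H2ac11 and H2bc11 shared promoter: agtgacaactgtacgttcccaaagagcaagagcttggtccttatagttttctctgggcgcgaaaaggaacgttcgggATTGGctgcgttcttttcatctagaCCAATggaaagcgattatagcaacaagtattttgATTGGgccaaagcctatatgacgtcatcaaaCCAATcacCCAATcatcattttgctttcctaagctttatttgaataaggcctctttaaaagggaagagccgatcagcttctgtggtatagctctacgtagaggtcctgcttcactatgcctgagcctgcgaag

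The H4c4 window (chr13:23581318-23581617, plus strand) is an H4 promoter of the kind that carries TATAAA, which is in capitals here together with CCAAT on either strand:
H4c4 promoter: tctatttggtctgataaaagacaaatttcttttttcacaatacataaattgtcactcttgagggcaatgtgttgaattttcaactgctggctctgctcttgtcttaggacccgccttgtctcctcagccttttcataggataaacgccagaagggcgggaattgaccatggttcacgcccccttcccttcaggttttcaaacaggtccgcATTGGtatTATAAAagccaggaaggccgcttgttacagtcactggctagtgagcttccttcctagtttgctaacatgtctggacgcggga

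In windows of this length, CCAAT was present on either strand in 85.2% of 61 clustered promoters, 71.4% of 7 variant promoters and 37.4% of all 32851 promoters. TATAAA was present on either strand in 54.1%, 14.3% and 13.6% of the same sets. The octamer ATTTGCAT, also on either strand, was present in 23.0% of clustered promoters against 1.7% of all promoters, namely in 41.2% of H2A and 41.2% of H2B promoters and in 0.0% of H1, H3 and H4 promoters. CCAAT was in each of the H1, H2A, H2B and H3 promoters and in 25.0% of the H4 promoters. These are matches of letters, not known binding sites, and 1 base may belong to matches of more than 1 motif.

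The libraries held 19452460 to 27992092 counts each, so that 3 counts correspond to between 0.107 and 0.154 counts in 1000000 (CPM). Levels below are CPM with TMM scaling, which adjusts each library's size for its composition. Summed NK cell markers were at 8686 to 17032 CPM, and all 8 were detected. The summed markers of T cells (12.5 to 30.7 CPM), B cells (4.03 to 9.28 CPM) and platelets (1.44 to 6.84 CPM) were low in each library, while erythroid markers spanned 27.6 to 703 CPM and myeloid markers, nearly all of them Itgax, 222 to 801 CPM. Itgax and so the myeloid sum moved with the title day, at 285 to 352 CPM in KO D2 and 222 to 237 CPM in WT D2 against 661 to 801 CPM in KO D0 and 731 to 740.3 CPM in WT D0, and its part in the day differences was not tested. Ldha itself was at 91.1 to 115 CPM in the 6 KO libraries, against 563 to 3101 CPM in the 5 WT libraries. In bulk samples such as these, fewer cells of a kind and less RNA per cell cannot be told apart. Differences were tested with edgeR's quasi-likelihood test over the 13711 genes that passed a filter on low counts, and a gene is called when its Benjamini-Hochberg adjusted p is under 0.05. Of the members, 70 were tested (63 clustered, 7 variant) and 7 were not, and 3 of those (H1f7, H1f10 and H2bc1) had 0 counts in each library.

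In KO D2 cells, many clustered H2A and H3 genes and some H1 genes were lower than in WT D2 cells, while no clustered H2B or H4 gene was called lower. Of 63 tested clustered genes, 21 were lower and 1 was higher, against 16.1% of all tested genes called (14.5% lower and 1.61% higher). The median log2 fold change of the tested clustered genes was -0.68, beside 0.01 over all tested genes. By family, 11 of 16 H2A genes, 8 of 11 H3 genes and 2 of 5 H1 genes were lower. None of 18 H2B genes and none of 13 H4 genes was lower, and their medians were -0.15 and -0.08. The medians of the H2A and H3 genes were -2.48 and -2.25. With the replicate number as a block, which pairs the D2 libraries, 25 clustered genes were lower and 1 higher, and the genes added were H1f3 (-0.89 ± 0.20, adjusted p = 0.0077), H2ac7, H2ac10 and H3c7, so that 3 of 5 H1 genes were then lower and still no H2B or H4 gene. Whether the families or the clustered and variant genes differ from each other was not tested.

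Summed over the 18 clustered H2A genes, the level was 103, 104 and 129.9 CPM in the KO D2 libraries, against 430.2, 1134 and 1121 CPM in the WT D2 libraries. The KO D2 sums were all below the WT D2 sums, and WT D2 replicate 1 was well below the other WT D2 libraries. Summed H3 was 9.31, 7.39 and 10.1 CPM in KO D2 cells, against 27.8, 51.3 and 61.3 CPM in WT D2 cells, again without overlap. Summed H1 was 78.7, 70.2 and 96.8 CPM in KO D2 cells, against 150.3, 150.7 and 195 CPM in WT D2 cells. The other core families overlapped. Summed H2B was 56.9, 43.6 and 63.2 CPM in KO D2 cells, against 64.6, 47.1 and 71.5 CPM in WT D2 cells, and summed H4 was 170.1, 149 and 156 CPM in KO D2 cells, against 155, 137 and 174 CPM in WT D2 cells. Within same-numbered pairs, however, each KO D2 sum of H2B was below its WT D2 sum, and so were the single levels of H1f5 and H3f3b given below, while H4 went both ways.

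**Figure D1:**
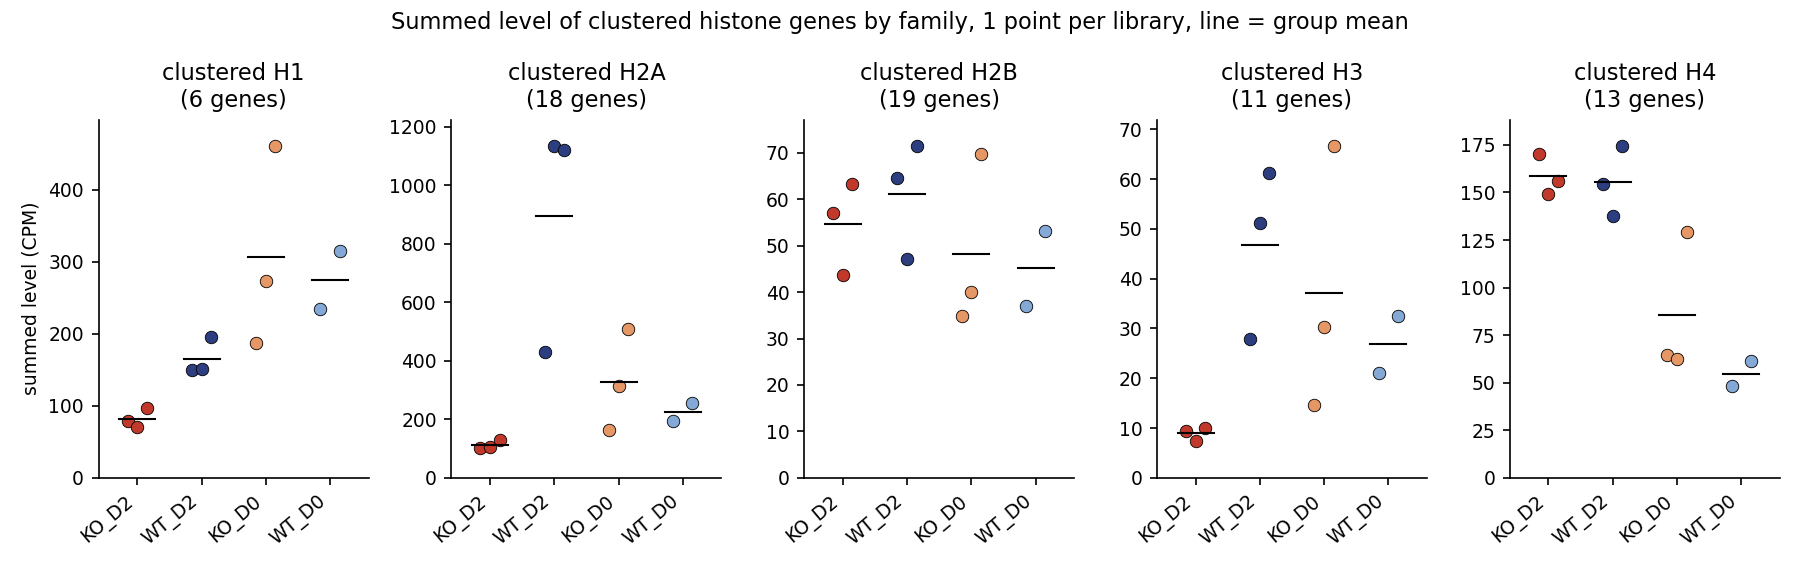
Summed CPM of the clustered H1, H2A, H2B, H3 and H4 genes in each library, by group. Each point is 1 library. The KO D2 points lie below the WT D2 points for H1, H2A and H3 and overlap them for H2B and H4.

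H2ac24 had the highest mean level of the clustered H2A genes. Its level was 46.9, 55.6 and 74.8 CPM in KO D2 cells, against 259.6, 881 and 834 CPM in WT D2 cells, so that each KO D2 library was below each WT D2 library. The log2 fold change was -3.48 ± 0.50 (SE), or 11.1-fold lower, with an adjusted p of 0.00049. Other members of the family separated the groups in the same way. H2ac23, which shares its start region with an H2B gene, was at 25.8, 15.4 and 17.3 CPM in KO D2 cells, against 75.1, 83.8 and 85.7 CPM in WT D2 cells (log2 fold change -2.06 ± 0.29, adjusted p = 0.00047). H2ac8 was at 8.19, 7.87 and 8.60 CPM in KO D2 cells, against 35.1, 70.8 and 72.4 CPM in WT D2 cells (-2.85 ± 0.41, adjusted p = 0.00047). H2ac4 was at 3.17, 3.98 and 4.57 CPM in KO D2 cells, against 14.6, 23.6 and 26.8 CPM in WT D2 cells (-2.47 ± 0.33, adjusted p = 0.00035). The groups did not overlap in these genes. H2ac23, H2ac8 and H2ac4 were named for the smallest p in this comparison, so their separation adds little to their calls. The share of all tested genes whose groups do not overlap is not given, here or in the other comparisons. All 4 encode replication-dependent H2A. H2ac24 shared 93.4% of its 31-base words with H2ac23, so how reads were divided between that pair is uncertain.

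Among the H3 genes, H3c1 had the highest mean level. It was at 3.22, 2.04 and 3.44 CPM in KO D2 cells, against 6.02, 11.1 and 14.1 CPM in WT D2 cells, and the groups did not overlap. Its log2 fold change was -1.85 ± 0.55 with an adjusted p of 0.038, and the call was lost in 6 of 11 fits that left out 1 library, with an adjusted p of up to 0.14. H3c11 was at 3.68, 3.03 and 3.8 CPM in KO D2 cells, against 10.1, 16.3 and 16.5 CPM in WT D2 cells (-2.03 ± 0.31, adjusted p = 0.00072). Both encode replication-dependent H3, the form deposited behind the replication fork.

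The linker histone genes were split. H1f4, the clustered H1 gene with the highest mean over all libraries, although below H1f5 in each KO D2 library, was at 28.2, 24.8 and 32.4 CPM in KO D2 cells, against 74.6, 81.7 and 97.6 CPM in WT D2 cells, a log2 fold change of -1.57 ± 0.33 (adjusted p = 0.0046). H1f2 was at 9.52, 7.77 and 15 CPM in KO D2 cells, against 25.8, 25.6 and 40.3 CPM in WT D2 cells (-1.50 ± 0.28, adjusted p = 0.0025). Neither gene's KO D2 libraries overlapped the WT D2 libraries. H1f5 overlapped, at 33.8, 33.5 and 40.8 CPM in KO D2 cells, against 41.1, 36.3 and 45.0 CPM in WT D2 cells (-0.18, adjusted p = 0.77).

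H2B and H4 genes were not called lower. H2bc11, the H2B gene with the highest mean level, was at 13.5, 10.4 and 15 CPM in KO D2 cells, against 17.4, 10.4 and 15.8 CPM in WT D2 cells (log2 fold change -0.16 ± 0.37, adjusted p = 0.86). H4c4, the H4 gene with the highest mean level, was at 139, 121 and 125 CPM in KO D2 cells, against 123, 111 and 133 CPM in WT D2 cells (0.07 ± 0.23, adjusted p = 0.91). The groups overlapped in both genes. The 1 clustered gene called higher was H2bu1-ps, a pseudogene symbol in the H2B family, with 3, 6 and 6 counts in the KO D2 libraries against 0, 0 and 1 in the WT D2 libraries. Its call was lost in 4 of 11 fits that left out 1 library and with DESeq2, and its level was near the limit of detection.

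Gene pairs that share a start region showed the same split. Of 10 head-to-head H2A and H2B pairs found with starts 164 to 281 bases apart, 9 had both partners tested. The H2A partner was lower in KO D2 cells in 7 of 9 pairs, against 14.5% of all tested genes, and the 7 had log2 fold changes of -3.48 to -2.06. The others were H2ac12 (-3.78) and H2ac7 (-1.72), which were not called, and the median over all 9 was -2.66. The H2B partner was lower in 0 of 9 (-0.69 to 0.39, median -0.16). In the pair whose shared stretch is printed above, and which was chosen after its values were seen, H2ac11 was at 1.13, 4.69 and 3.98 CPM in KO D2 cells, against 15, 18.3 and 25.8 CPM in WT D2 cells (-2.58 ± 0.47, adjusted p = 0.0020), while H2bc11 was not called. H2ac11 did not overlap between the groups. The 7 called H2A partners shared from 47.9% (H2ac8) to 93.8% (H2ac23) of their 31-base words with other genes. Reads may thus be divided between such genes, and the 7 cannot be counted as independent cases. The difference between partners was not tested.

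The variant genes were also divided. H2az1, H3f3a and H3f3b, which encode H2A.Z and H3.3 and are the most abundant variant genes here, were not called between KO D2 and WT D2 cells, and the less abundant H1f0, H2aj, H2ax and H2az2 were lower. Thus 4 of 7 tested variant genes were lower and 0 were higher, against 14.5% lower and 1.61% higher of all tested genes. The median log2 fold change of the 7 was -0.99, beside 0.01 over all genes. H2az1 was at 1156, 1150.3 and 1187 CPM in KO D2 cells, against 1203, 1068 and 1173 CPM in WT D2 cells (0.02 ± 0.12, adjusted p = 0.95), and the groups overlapped. H3f3a was at 665, 738 and 749 CPM in KO D2 cells, against 649.5, 628 and 673 CPM in WT D2 cells (0.14 ± 0.13, adjusted p = 0.59). H3f3b was at 1586, 1555 and 1410.3 CPM in KO D2 cells, against 1663, 1612 and 1487 CPM in WT D2 cells (-0.06 ± 0.17, adjusted p = 0.89, and 0.03 with DESeq2 size factors). H2A.Z marks promoters and enhancers, and H3.3 is the form of H3 that is deposited outside replication.

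H2aj, a variant of H2A, was at 5.27, 6.59 and 8.05 CPM in KO D2 cells, against 21, 65 and 61.2 CPM in WT D2 cells, without overlap (log2 fold change -2.88 ± 0.43, adjusted p = 0.00065). H2ax, whose product is phosphorylated beside DNA breaks, was at 26.1, 30.7 and 40.5 CPM in KO D2 cells, against 96.4, 221 and 212 CPM in WT D2 cells (-2.44 ± 0.36, adjusted p = 0.00062). In both genes WT D2 replicate 1 was the lowest WT D2 library and still lay above the KO D2 libraries. H2az2, the second H2A.Z gene, was at 17.0, 18.6 and 23.1 CPM in KO D2 cells, against 28.2, 44.4 and 43.9 CPM in WT D2 cells (-0.99 ± 0.21, adjusted p = 0.0051). H1f0, a linker histone of cells that have stopped dividing, was at 1.79, 0.664 and 0.679 CPM in KO D2 cells, against 2.89, 4.57 and 3.15 CPM in WT D2 cells (-1.77 ± 0.49, adjusted p = 0.025). The H1f0 call was the least firm of the 4, with an adjusted p of up to 0.11 when 1 library was left out.

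**Figure D2:**
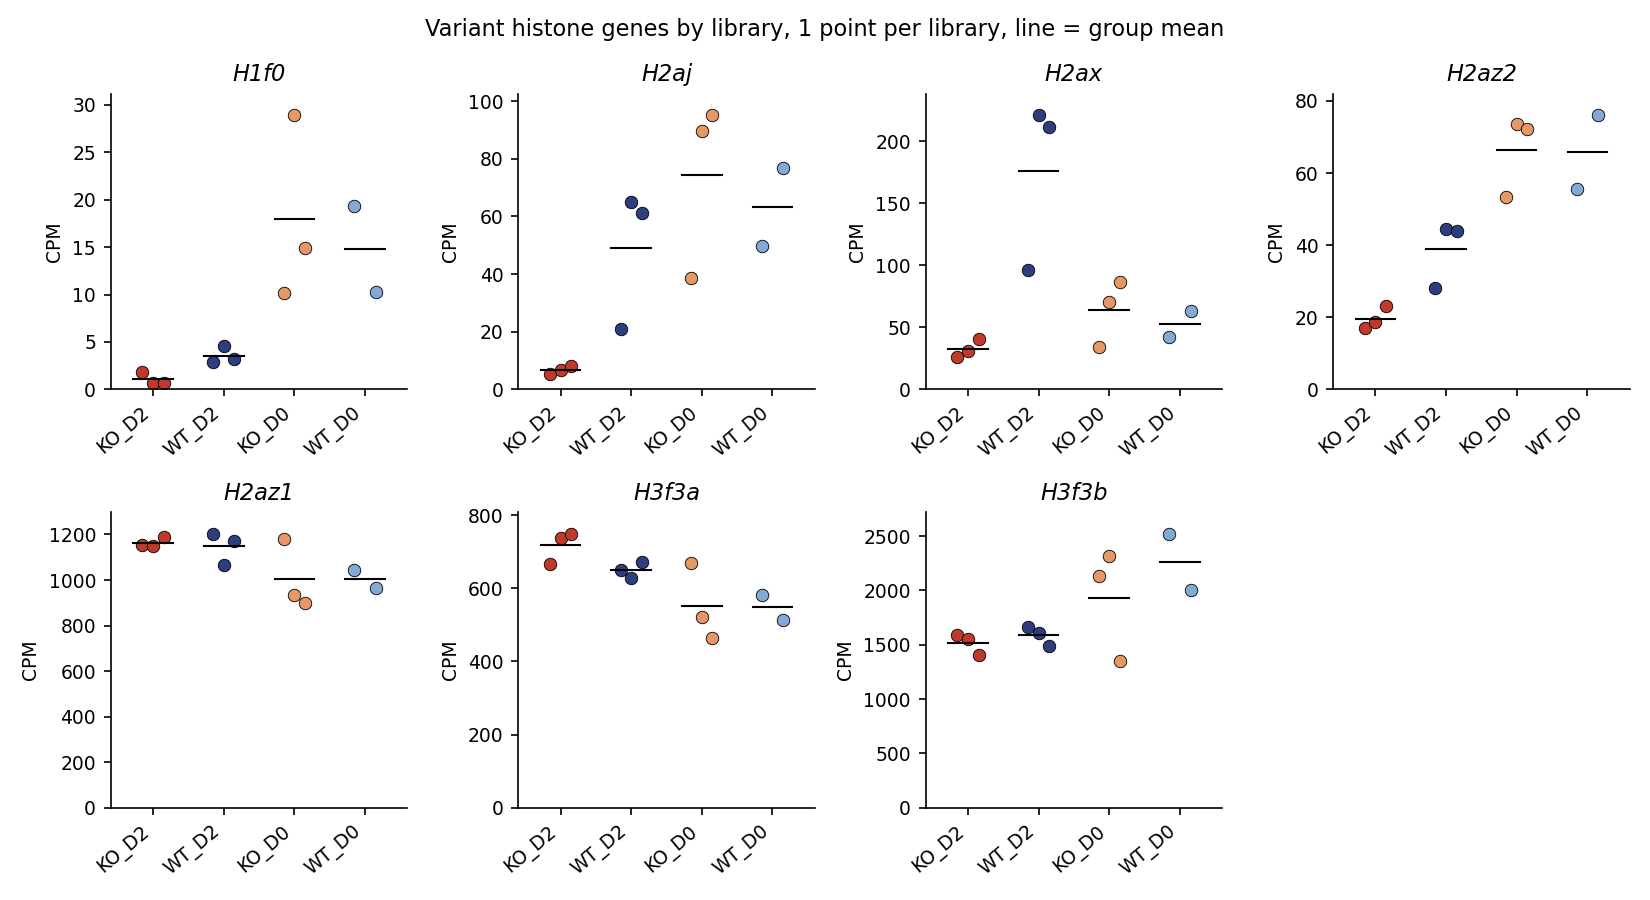
CPM of the 7 tested variant genes in each library, by group. Each point is 1 library. H2aj, H2ax, H2az2 and H1f0 lie lower in KO D2 than in WT D2 libraries, while H2az1, H3f3a and H3f3b overlap.

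Per kilobase of annotated transcript, H2az1 averaged 1438 CPM per kb in KO D2 cells and 1417 in WT D2 cells. H3f3b averaged 1058 in KO D2 and 1107 in WT D2 cells, and H3f3a 991 in KO D2 and 898 in WT D2 cells. H2ac24 averaged 123 CPM per kb in KO D2 cells and 1366 in WT D2 cells, with the wide spread over libraries given above. Scaling by length does not make clustered and variant genes comparable, because a clustered level here is only that of the RNA captured by oligo-dT priming. How reads were divided between H2ac24 and H2ac23 is also uncertain. H4c4 averaged 113 CPM per kb in KO D2 cells and 108 in WT D2 cells, and H2ax 23.4 in KO D2 and 127 in WT D2 cells. The variant genes together made 3457, 3499.7 and 3419 CPM in KO D2 cells, against 3664, 3642 and 3652 CPM in WT D2 cells. The clustered genes together made 418, 375 and 456 CPM in KO D2 cells, against 827, 1520.3 and 1624 CPM in WT D2 cells.

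Most members that were lower in KO D2 cells had a GC-rich stretch in their transcript. Peak GC was 69 to 79% in the tested H2A genes (median 78%), 75 to 79% in H3 (77%) and 65 to 76% in H1 (73%), against 64 to 73% in H2B (72%) and 68 to 72% in H4 (71%). Of 29 members with a peak GC of 75% or more, 23 were lower in KO D2 cells (79.3%), against 40.1% of all 2583 tested genes with a peak GC that high. Of 33 members from 70% to under 75%, 2 were lower (6.06%), against 13.6% of such genes. Across 68 members the log2 fold change and peak GC had a Pearson correlation of -0.81 (Spearman -0.82), and across 12819 genes -0.31 (Spearman -0.32). These are correlations across genes, which share the same libraries and are not independent replicates.

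The same composition moved with the libraries as a whole. A GC index was computed per library as the median log2 deviation of genes with a peak GC of 75% or more minus that of genes under 65%. It was -0.58, -0.51 and -0.48 in KO D2 libraries, against -0.23, 0.18 and 0.10 in WT D2 libraries, and it was 0.12, 0.38 and 0.43 in KO D0 against 0.19 and 0.31 in WT D0. KO D2 libraries were thus the lowest, and WT D2 replicate 1, which had the lowest clustered H2A level of the WT D2 libraries, came next. With an offset for GC in the fit, an alternative chosen after seeing the data, 18 clustered and 3 variant genes were called, all 21 of them among the 26 called without it. The calls lost included H3c1 and H1f0. H2bu1-ps has no GENCODE transcript, hence no peak GC, and was not tested in the fits with this offset. With this offset and the replicate block together, 23 clustered and 4 variant genes were called, H3c1 and H1f0 among them. The share of all tested genes called in the fits with this offset is not given. These counts therefore do not show whether histone calls changed more or less than those of all genes. The part of GC content in the lower histone levels was not tested further.

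**Figure D3:**
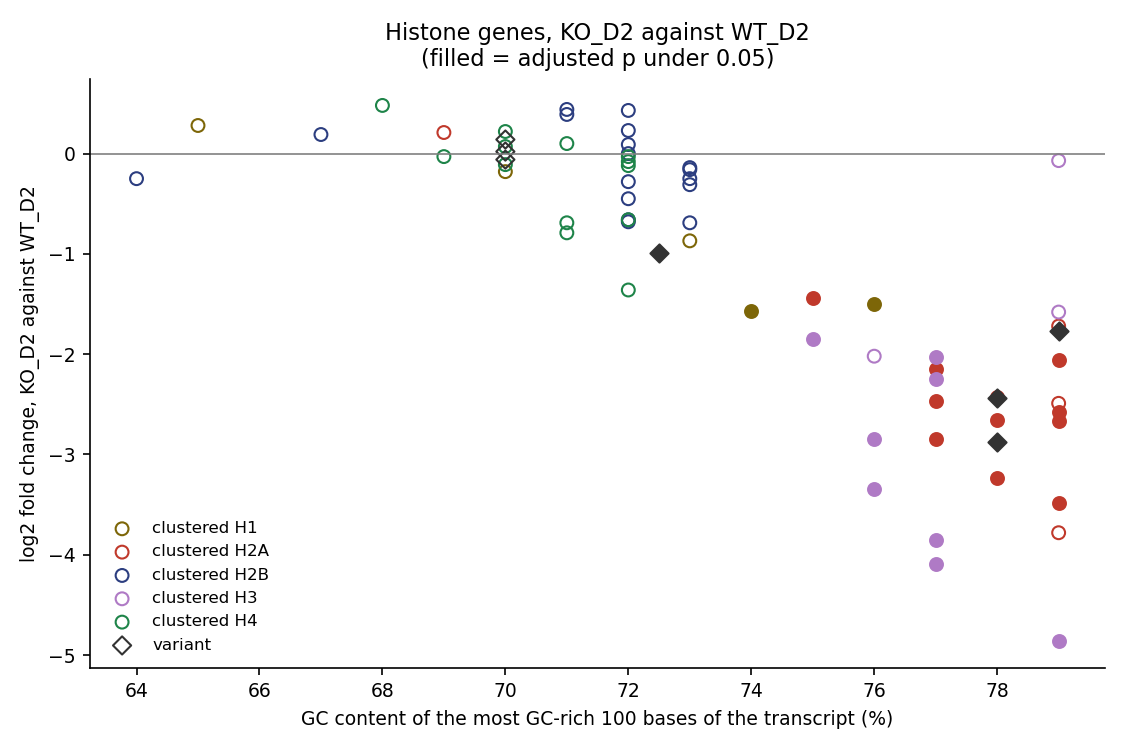
Log2 fold change in KO D2 against WT D2 cells (vertical axis) of the 68 tested histone genes with a peak GC. The horizontal axis is the GC percentage of the most GC-rich 100 bases of the transcript. Each point is 1 gene, marked by family. H2af-ps2 and H2bu1-ps have no GENCODE transcript and are not drawn, and H2bu1-ps (3.59) was the H2B gene called higher. Members with a peak GC of 75% or more lie mostly below 0, and the H2B and H4 genes lie to their left near 0.

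In KO D0 cells no histone gene was called different from WT D0 cells, as 0 of 70 members passed the edgeR test against 0.153% of all tested genes. There were 4 members with an unadjusted p under 0.05, and DESeq2 called 0. The median log2 fold change was 0.30 for the clustered and 0.01 for the variant genes, beside 0.02 over all genes. H2ac24 was at 86.3, 193 and 329 CPM in KO D0 cells, against 107 and 136 CPM in WT D0 cells, and H2ax was at 34.3, 70.8 and 86.2 CPM in KO D0 cells, against 42.0 and 63.3 CPM in WT D0 cells. The groups overlapped in both. H4c4 was at 40.4, 33.2 and 74.8 CPM in KO D0 cells, against 24.5 and 24.9 CPM in WT D0 cells (log2 fold change 1.0 ± 0.27, adjusted p = 0.64), where the KO D0 libraries were all higher. With the replicate number as a block, 1 member was called, H1f5 (0.98 ± 0.19, adjusted p = 0.044). Whether the replicate numbers pair the D0 libraries is not settled. Summed clustered levels spread widely among the KO D0 libraries (466, 719.8 and 1234 CPM), against 536 and 717 CPM in WT D0 cells.

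In WT cells, clustered H2A, H3 and H4 genes were called higher at D2 than at D0 more often than lower, while the H1 and H2B genes were called as often in each direction. Of 63 clustered genes, 22 were higher and 7 lower, and of 7 variant genes 1 was higher and 3 lower, against 53.5% of all tested genes called (27.5% higher and 26.0% lower). The median log2 fold change was 0.81 for the clustered genes and -0.36 for the variant genes, beside -0.07 over all genes. The clustered share called, 46.0%, was thus below that of all genes. Calls numbered 7 higher and 2 lower of 16 H2A, 5 and 0 of 11 H3, 6 and 1 of 13 H4, 3 and 3 of 18 H2B, and 1 and 1 of 5 H1 genes. Leaving out WT D0 replicate 2 reduced the clustered calls to 18 and the variant calls to 2, and WT D0 then holds 1 library whose spread is assumed to be that of the other groups.

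H4c4 was at 123, 111 and 133 CPM in WT D2 cells, against 24.5 and 24.9 CPM in WT D0 cells (log2 fold change 2.31 ± 0.28, adjusted p = 1.7e-05). H1f5 was at 41.1, 36.3 and 45.0 CPM in WT D2 cells, against 5.33 and 6.99 CPM in WT D0 cells (2.73 ± 0.35, adjusted p = 2.8e-05). H2ac23 was at 75.1, 83.8 and 85.7 CPM in WT D2 cells, against 12.6 and 12.7 CPM in WT D0 cells (2.69 ± 0.35, adjusted p = 3.2e-05). The groups did not overlap in these genes, which were named for the smallest p in this comparison. H2ac4 was also higher (2.83 ± 0.40, adjusted p = 5.4e-05), and so were H2ac24 (2.44 ± 0.56, adjusted p = 0.0025), H2bc14 (2.22 ± 0.51, adjusted p = 0.0025) and H2bc11 (1.48 ± 0.44, adjusted p = 0.013). The call of H2bc11 was lost without WT D0 replicate 2, with an adjusted p of 0.14.

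A smaller number of members went the other way. H1f2 was at 25.8, 25.6 and 40.3 CPM in WT D2 cells, against 122 and 115 CPM in WT D0 cells (log2 fold change -1.95 ± 0.30, adjusted p = 0.00011). H2bu2 was at 0.548, 0.272 and 0.539 CPM in WT D2 cells, against 3.04 and 3.95 CPM in WT D0 cells (-2.94 ± 0.37, adjusted p = 2.1e-05), and H2aw, which lies like H2bu2 in the small cluster on chromosome 11, was at 4.73, 5.7 and 5.43 CPM in WT D2 cells, against 10.2 and 13.1 CPM in WT D0 cells (-1.14 ± 0.20, adjusted p = 0.00036). H1f2, H2bu2 and H2aw, also named for the smallest p, did not overlap between the groups. H1f0 was at 2.89, 4.57 and 3.15 CPM in WT D2 cells, against 19.3 and 10.2 CPM in WT D0 cells (-2.06 ± 0.46, adjusted p = 0.0020). H2az2 (-0.76 ± 0.23, adjusted p = 0.012) and H3f3b (-0.51 ± 0.19, adjusted p = 0.037) were lower, whereas H2ax was higher (1.74 ± 0.41, adjusted p = 0.0030). Without 1 of the WT D0 libraries each of these 3 lost its call, H2ax and H3f3b without replicate 2 (adjusted p = 0.051 and 0.19) and H2az2 without replicate 3 (adjusted p = 0.12), and H3f3b was called in 8 of the 11 fits. H2az1 (0.19 ± 0.13, adjusted p = 0.24) and H3f3a (0.25, adjusted p = 0.18) were not called.

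In KO cells, more clustered and variant genes were called lower than higher at D2 against D0, as held for all tested genes. Of 63 clustered genes, 8 were higher and 18 lower, and of 7 variant genes 1 was higher and 4 lower, against 61.4% of all tested genes called (27.0% higher and 34.5% lower). The clustered share called, 41.3%, was thus below that of all genes, and so was the clustered share in each direction. The variant share called was 71.4% of 7 genes. The median log2 fold change was -0.53 for the clustered and -0.97 for the variant genes, beside -0.20 over all genes. The variant calls numbered 3 when replicate 2 of either group or KO D2 replicate 1 was left out. Of the 8 clustered genes called higher, 5 were H2B, 2 H4 and 1 H1, and 0 were H2A or H3. The lower genes included 8 of 16 H2A, 5 of 11 H3 and 3 of 5 H1 genes.

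H1f5 was at 33.8, 33.5 and 40.8 CPM in KO D2 cells, against 7.68, 7.71 and 18.2 CPM in KO D0 cells (log2 fold change 1.69 ± 0.29, adjusted p = 0.00023). H4c4 was at 139, 121 and 125 CPM in KO D2 cells, against 40.4, 33.2 and 74.8 CPM in KO D0 cells (1.38 ± 0.23, adjusted p = 0.00021). Both, named for the smallest p in this comparison, were higher without overlap. H2bc14 was at 2.2, 1.66 and 2.53 CPM in KO D2 cells, against 0.450, 0.314 and 1.11 CPM in KO D0 cells (1.80 ± 0.45, adjusted p = 0.0034), and H2bc11 was higher by 1.02 ± 0.38 on the log2 scale (adjusted p = 0.033, called in 6 of 11 fits without 1 library).

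Among the lower genes, H1f2 was at 9.52, 7.77 and 15 CPM in KO D2 cells, against 85.9, 144 and 165 CPM in KO D0 cells (log2 fold change -3.61 ± 0.30, adjusted p = 4.9e-07). H2ac19 was at 5.63, 5.07 and 6.79 CPM in KO D2 cells, against 31.4, 45.4 and 55.7 CPM in KO D0 cells (-2.92 ± 0.28, adjusted p = 1.6e-06). H2bu2 was at 0.921, 0.474 and 0.452 CPM in KO D2 cells, against 3.63, 3.87 and 3.37 CPM in KO D0 cells (-2.56 ± 0.34, adjusted p = 2.6e-05). These genes, also named for the smallest p, were lower without overlap. H1f4 (-2.30 ± 0.33, adjusted p = 5.7e-05), H3c1 (-2.73 ± 0.56, adjusted p = 0.00094), H2ac24 (-1.78 ± 0.47, adjusted p = 0.0052) and H2aw (-1.09 ± 0.18, adjusted p = 0.00020) were also lower, and the call of H2ac24 was lost with the GC offset. H2ac4 (-0.10, adjusted p = 0.81), H2ac23 (0.24, adjusted p = 0.49) and H2ac11 (-0.10, adjusted p = 0.86) were not called.

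Of the variant genes, H1f0 was at 1.79, 0.664 and 0.679 CPM in KO D2 cells, against 10.1, 28.9 and 14.9 CPM in KO D0 cells (log2 fold change -4.12 ± 0.49, adjusted p = 1.1e-05). H2aj was at 5.27, 6.59 and 8.05 CPM in KO D2 cells, against 38.8, 89.6 and 95.1 CPM in KO D0 cells (-3.48 ± 0.44, adjusted p = 1.9e-05). H2az2 was at 17.0, 18.6 and 23.1 CPM in KO D2 cells, against 53.4, 73.6 and 72.1 CPM in KO D0 cells (-1.76 ± 0.21, adjusted p = 1.2e-05). These 3 did not overlap. Erythroid markers were highest in the D0 libraries with the most H1f0, KO D0 replicate 2 (703 CPM summed, H1f0 at 28.9 CPM) and WT D0 replicate 2 (643 CPM, H1f0 at 19.3 CPM), while the lowest D0 libraries had 77.6 CPM in KO and 151 CPM in WT cells. Without replicate 2 of the group, the log2 fold change of H1f0 was -3.64 in KO D2 against KO D0 (adjusted p = 3.7e-05) and -1.60 in WT D2 against WT D0 (adjusted p = 0.031). H2ax overlapped and was lower (-0.97 ± 0.35, adjusted p = 0.029), a call that was lost with the GC offset and in 4 of 11 fits that left out 1 library. H3f3a was higher (0.38 ± 0.13, adjusted p = 0.025), but was called in 4 of 11 such fits, with an adjusted p of up to 0.16. H2az1 was not called (0.21 ± 0.12, adjusted p = 0.13), but it was called higher with DESeq2 size factors in edgeR (0.32, adjusted p = 0.035), a scaling that moves the median of all genes by 0.11 in this comparison.

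The genotype difference of the change between D0 and D2 was tested as an interaction. Of 63 clustered genes, 15 were lower and 0 higher, namely 9 H2A, 5 H3 and 1 H1 gene, and of 7 variant genes 2 were lower, H2aj and H2ax, against 5.84% of all tested genes called (5.72% lower and 0.124% higher). A negative value here means that the log2 change from D0 to D2 was smaller or more negative in KO than in WT cells. H2ac24 was lower at D2 in KO cells and higher at D2 in WT cells, and the difference was -4.21 ± 0.73 (adjusted p = 0.011). For H2ax, lower in KO and higher in WT cells at D2, it was -2.72 ± 0.54 (adjusted p = 0.018). For H2aj, lower in KO cells and not called in WT cells (-0.36, adjusted p = 0.51), it was -3.12 ± 0.62 (adjusted p = 0.019). H3c11 was not called in KO cells (-0.69, adjusted p = 0.070) and higher at D2 in WT cells (2.29 ± 0.36, adjusted p = 0.00015), with a difference of -2.98 ± 0.47 (adjusted p = 0.0092).

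These calls rested on few libraries. When 1 KO D0 library was left out, the clustered count was 20 (replicate 1 left out), 5 (replicate 2) or 10 (replicate 3), and for the KO D2 libraries it was 6, 4 and 8 in the same order. When 1 WT D2 library was left out, it was 18 (replicate 1), 9 (replicate 2) or 4 (replicate 3), and it was 0 with WT D0 replicate 2 left out and 4 with WT D0 replicate 3 left out. The variant count was 0 when KO D0 replicate 2, KO D2 replicate 1 or 2, either WT D0 library or WT D2 replicate 3 was left out, and 4 when KO D0 replicate 1 was. With the replicate number as a block, 27 clustered and 4 variant genes were called, and the variant genes added were H1f0 (-2.36, adjusted p = 0.0067) and H2az2 (-1.14, adjusted p = 0.0034). Among the clustered genes added were H1f4 (-1.91 ± 0.15, adjusted p = 0.00016), H3c1 (-2.5 ± 0.38, adjusted p = 0.0020), H1f5 (-1.16 ± 0.24, adjusted p = 0.0075) and 1 H4 gene, H4c4 (-0.95 ± 0.28, adjusted p = 0.044). The block also pairs the D0 libraries by number, and that pairing is not settled. Without the block the H2B and H4 genes, at 0 of 18 and 0 of 13 calls, had median differences of -0.26 and -0.57 beside -0.04 over all genes.

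**Figure D4:**
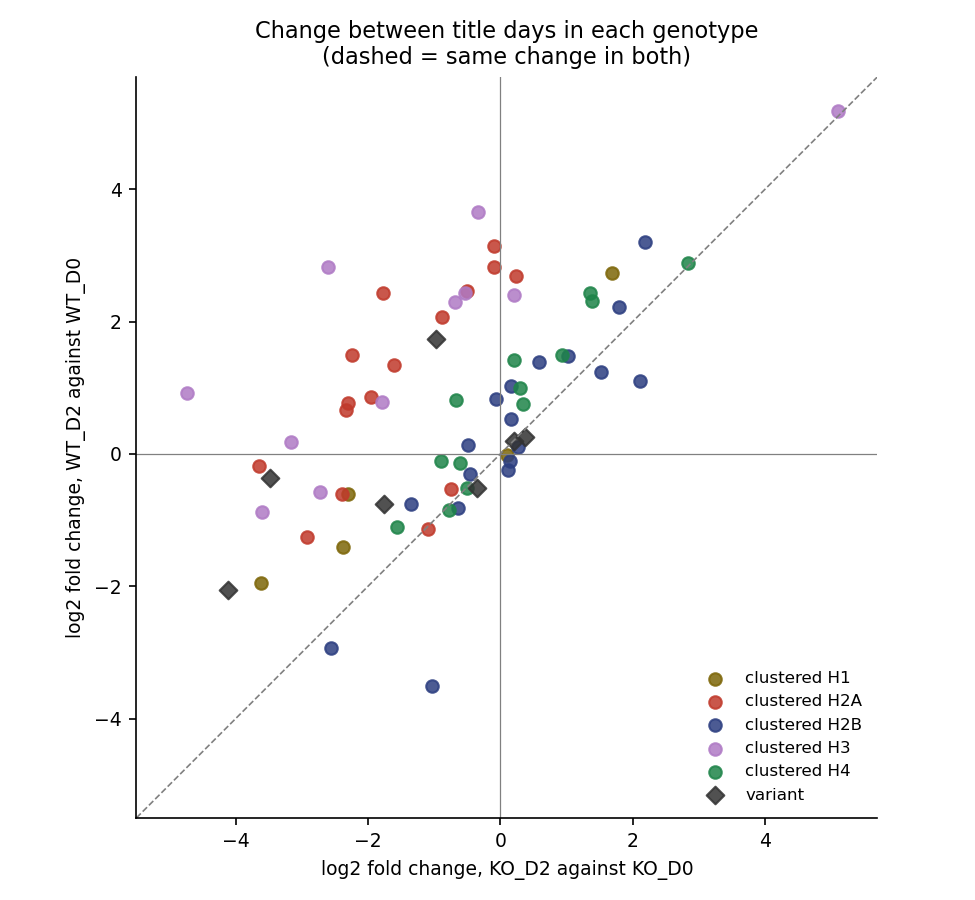
Log2 fold change of each tested histone gene, D2 against D0, in KO cells and in WT cells; each point is 1 gene, marked by family. Most H2A and H3 genes lie higher in WT than in KO cells, while H4c4 and H1f5 are above 0 in both.

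The D2 against D0 differences were also set beside GC content. Of the 29 members with a peak GC of 75% or more, 16 (55.2%) were lower at D2 in KO cells, near the 53.9% of all such genes. In WT cells 13 of the 29 (44.8%) were higher at D2, against 22.1% of all such genes. Over all tested genes the share higher in WT cells fell with peak GC, from 33.3% under 65% to that 22.1%. In the interaction 17 of the 29 were lower, against 17.1% of all such genes, and 0 of 33 members from 70% to under 75% were called. The annotated 3′ ends of the members differed as well. Of 24 tested genes with a stem-loop followed by under 300 bases, 14 were higher and 2 lower at D2 in WT cells, against 27.5% and 26.0% of all tested genes. Of 17 genes whose transcript runs on for 300 bases or more, 2 were higher and 3 lower. In KO cells the counts were 6 higher and 5 lower of 24, and 1 higher and 8 lower of 17, against 27.0% and 34.5% of all tested genes. The 6 of 24 higher in KO cells lay near the share of all genes. The limit of 300 bases was chosen after seeing the values, and the difference between the 2 kinds was not tested.

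Genes that process histone messenger RNA were mostly higher at D2 in both genotypes. Of 13, 8 were higher and 1 lower in KO cells (27.0% and 34.5% of all tested genes) and 10 were higher in WT cells (27.5% of all tested genes). Between KO D2 and WT D2 cells 2 of 13 (15.4%) were lower, a share near the 14.5% of all tested genes. Slbp, the gene for the stem-loop binding protein, named after its values were seen, was at 471, 441 and 473 CPM in KO D2 cells, against 536, 410.1 and 453 CPM in WT D2 cells (log2 fold change -0.01 ± 0.13, adjusted p = 0.97). It was higher at D2 than at D0 in KO cells (1.04 ± 0.13, adjusted p = 1.5e-05) and in WT cells (0.97 ± 0.15, adjusted p = 0.00011). The 2 lower genes were Eri1, whose exonuclease trims and degrades histone messenger RNA ends, at -1.95 ± 0.27 (adjusted p = 0.00042), and Ncbp1, a subunit of the nuclear cap-binding complex, at -0.91 ± 0.14 (adjusted p = 0.00078).

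Histone chaperones carry new histones to DNA. Of 17 H3-H4 chaperone genes, 3 (17.6%) were lower in KO D2 than in WT D2 cells and 0 higher, a share near the 14.5% of all tested genes that were lower. They were Mms22l (-1.69 ± 0.21, adjusted p = 0.00019), Asf1a (-2.01 ± 0.32, adjusted p = 0.00089), which hands H3-H4 to other chaperones, and Chaf1a (-1.19 ± 0.19, adjusted p = 0.00097), a subunit of the chromatin assembly factor at replication forks. At D2 against D0, 9 of the 17 were higher and 3 lower in KO cells (27.0% and 34.5% of all tested genes), and 10 were higher and 1 lower in WT cells (27.5% and 26.0%). Of 16 genes for chaperones and exchangers of H2A-H2B and H2A.Z, 3 (18.8%) were lower in KO D2 than in WT D2 cells, again near 14.5% of all tested genes, namely Yeats4 (-1.33 ± 0.15, adjusted p = 0.00015), Ep400 (-0.51 ± 0.12, adjusted p = 0.0086) and Nap1l1 (-0.51 ± 0.15, adjusted p = 0.029). At D2 against D0, 11 of the 16 were higher and 2 lower in KO cells, and 12 were higher in WT cells, beside the same shares of all genes. Of 3 other variant genes, 1 was lower and 1 higher in KO D2 than in WT D2 cells. Macroh2a1, a macroH2A gene, was lower (-1.43 ± 0.31, adjusted p = 0.0055). Macroh2a2, another macroH2A gene, was higher (adjusted p = 0.027) at levels of very few counts, with 0.154, 0.332 and 0.136 CPM in KO D2 cells, against 0.0498, 0.0 and 0.0 CPM in WT D2 cells. Cenpa, the H3 variant of centromeres, was not called (-0.41 ± 0.14, adjusted p = 0.069).

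S phase genes, set beside the clustered histones because both are used in DNA replication, were higher at D2 in 13 of 15 cases in KO cells, with Cdt1 lower, and in 14 of 15 in WT cells, against 27.0% of all tested genes higher in KO and 27.5% in WT cells. Between KO D2 and WT D2 cells 4 of 15 (26.7%) were lower, against 14.5% of all tested genes, namely Mcm6 (-1.48 ± 0.16, adjusted p = 0.00012), Ccne1 (-1.54 ± 0.24, adjusted p = 0.00072), Cdt1 (-1.47 ± 0.23, adjusted p = 0.00078) and Rrm2 (-0.44 ± 0.13, adjusted p = 0.040), and 0 were higher. The median log2 fold change of the 15 in KO D2 against WT D2 cells was -0.14.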

How the data were processed

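Gene counts were deposited by the authors as whole numbers per Entrez gene in 11 libraries. Per the labels' protocols, 2 ng of total RNA (RIN 9.4 to 10) was amplified with an oligo-dT primed kit by 12 PCR cycles, and libraries had 8 more. The submitters' processing notes name bcl2fastq 2.20.0.422, Trimmomatic 0.36, Salmon 0.13.1, DESeq2 1.22.2 and build mm10, without their roles, so the counts may be rounded estimates that divide reads between near-identical histone genes. The deposited counts were matched to RefSeq symbols (24387 of 24421 genes). Of 61 clustered genes with shared words computed, 40 shared 50% or more of their 31-base words with another gene. Clustered counts are therefore uncertain gene by gene, while variants shared at most 18.8%.

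The 4 groups were fitted together with edgeR 4.0.16 in R 4.3.3 (TMM, filterByExpr, robust quasi-likelihood test, Benjamini-Hochberg adjustment over 13711 genes). The replicate numbers come from the titles. Same-numbered KO D2 and WT D2 libraries deviated together (correlations 0.217, 0.198 and 0.114, against -0.193 to 0.00511 for unlike numbers). The numbers were therefore taken to pair the D2 samples. At D0 the same-numbered pairs had 0.0275 and 0.41, while KO D0 replicate 1 with WT D0 replicate 2 had 0.376. Whether the numbers pair the D0 samples is not settled, although the replicate block uses them there. Alternatives were DESeq2 1.42.0, other scaling and filters, replicate blocks, a GC offset and leaving out each library. Named genes were all tested variants, the most abundant gene of each clustered family and, in each contrast and direction, up to 3 called members with the smallest p. Members and lists were chosen with earlier results of these data known. Scripts were tested on simulated data. Sequences are from RefSeq (GRCm38.p6) and GENCODE.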

Additional observations from a re-analysis of the deposited data

Results flagged for a closer look

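For 10 of the 24 named genes the change from D0 to D2 differed between KO and WT cells. This was by the interaction test in edgeR (adjusted p under 0.05), which called 5.84% of all tested genes. H2ac20, H2ac4 and H3c11 were named for the smallest p in this same test, so the count is partly set by the naming. The differences, KO minus WT on the log2 scale, were -4.21 for H2ac24, -2.96 for H2ac20, -2.95 for H2ac8, -2.93 for H2ac4, -2.45 for H2ac23 and -1.67 for H2ac19 among the H2A genes. They were -2.98 for H3c11, -1.65 for H1f2, -3.12 for H2aj and -2.72 for H2ax. H2ac20 and H3c11 were called in 10 of 11 fits that left out 1 library, H2ac24 and H2ac4 in 9, H2ac23 in 7, H2ac8 in 6, H2aj and H2ax in 5, H1f2 in 3 and H2ac19 in 2. Each of the 10 lost its call without WT D0 replicate 2, with adjusted p from 0.065 to 0.16. H1f2 and H2ac19 also lost it with the GC offset. Groups of 2 or 3 libraries are too small for a test of single outlying samples.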

How the results depend on the processing

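Keeping only genes that averaged 5 CPM or more left fewer members to test, and clustered calls numbered 10 in KO D2 against WT D2, 12 in KO D2 against KO D0, 14 in WT D2 against WT D0 and 9 in the interaction. In the interaction, clustered calls were 9 with no filter, 27 with the replicate block, 23 with the replicate block across days and 8 with the GC offset, and variant calls were 0, 4 and 4 under the first 3 of these settings and 5 with the replicate block and GC offset together. In KO D0 against WT D0, 1 clustered gene was called with the replicate block, with and without the GC offset. Without 1 library at a time, clustered calls ranged from 16 to 23 in KO D2 against WT D2, from 24 to 30 in KO D2 against KO D0, from 18 to 32 in WT D2 against WT D0 and from 0 to 20 in the interaction. Variant calls ranged from 3 to 4, from 3 to 6, from 2 to 4 and from 0 to 4 in the same comparisons. H3f3b changed sign in KO D2 against WT D2 to 0.03 with DESeq2 size factors and with DESeq2. H2az1 spanned -0.03 to 0.04 in that comparison and -0.05 to 0.16 in the interaction without 1 library, and H3f3b -0.04 to 0.32 in the interaction. In KO D2 against WT D2 the replicate block added 4 clustered calls and lost none. The causes were not tested. For these settings, and for the blocks and left-out libraries described earlier, the share of all tested genes called is not given. The counts therefore show how member calls moved, and not whether they moved more than those of all genes. Of the values for single named genes under the other settings, 520 kept direction and call, 13 gained and 19 lost the call, and 2 changed sign. When 1 library was left out, 719 kept both, 5 gained and 82 lost the call, and 8 changed sign. At this depth, clustered genes below about 0.154 CPM cannot be distinguished from 3 counts or fewer.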
